A study of Mus musculus with 32 samples.

Results

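The comparison asked whether loss of Alk5 changed gene expression differently in the distal end of the mandible (lower jaw) and the distal end of the maxilla (upper jaw). It used the 16 arrays of distal tissue, out of 32 arrays in the series, and took for every gene the difference of differences: mutant minus control in the mandible, minus mutant minus control in the maxilla. The proximal arrays were not used. A negative value therefore means that the mutant change in the mandible lay below the mutant change in the maxilla, and a positive value the opposite. The 4 groups were Alk5_Knockout distal mandible, Control distal mandible, Alk5_Knockout distal maxilla and Control distal maxilla, with 4 arrays each, labelled strain C57B6 and stage E13.5. The mutants came from crosses of Wnt1cre;Alk5fl/+ with Alk5fl/fl mice, so that the floxed Alk5 gene was deleted where the Wnt1-Cre transgene was active, which is mainly the neural crest and its descendants. Epithelium, muscle and blood of the same tissue keep their own Alk5. The mutants were recognised by a cleft palate and a defect of the skull vault, the controls were littermates whose genotype is given only as Control, and every embryo of such a cross carries at least 1 floxed allele. Nothing in the labels ties an array to an embryo or to a pool of embryos. The p-values therefore reflect how much arrays of a group scatter, and some of that scatter may be technical.

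Alk5, gene symbol Tgfbr1, is the type I receptor through which TGF-beta ligands signal: a ligand assembles it with the type II receptor Tgfbr2, and it phosphorylates Smad2 and Smad3, which enter the nucleus and alter transcription. The neural crest supplies the connective tissue, cartilage and bone of both jaws, and also sensory neurons, Schwann cells and pigment cells. In the embryo the distal maxilla lies close to the nasal and olfactory region. These are whole tissue pieces, so fewer cells of a type and less RNA per cell cannot be told apart in any value below.

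The jaw labels were borne out by known regional genes. Hand2, a transcription factor of the lower jaw, lay between 13.28 and 13.66 on the 8 mandible arrays and between 7.24 and 9.33 on the 8 maxilla arrays, as log2 expression values made with RMA, the scale used throughout. Otx2, a homeobox gene of the olfactory epithelium and forebrain, lay at 4.06 to 4.94 on mandible arrays and 9.12 to 10.23 on maxilla arrays. Some arrays stood apart. Xist was between 13.34 and 13.95, with the Y-linked Eif2s3y low, on mutant number 1 and control number 2 of both jaws, so each of the 4 groups held 1 such array. Control distal maxilla 3 had both Xist (9.69) and Eif2s3y (10.23) well above the low level of the other arrays. The bacteriophage Cre spike control was at 13.71 to 13.85 on the 4 arrays of number 1 and at 12.42 to 13.23 on the other 12. Control distal mandible 3 had a 3′ to 5′ difference of the Gapdh control of 2.23, against -0.18 to 0.12 elsewhere, and mutant distal maxilla 1 had an array SD of 2.37, against 2.50 to 2.56. Mutant distal maxilla 4 and control distal maxilla 2 had the highest mean levels of sarcomere genes and of neuron markers in their groups. For sarcomere genes control distal maxilla 4 (8.79) lay near control distal maxilla 2 (9.25). For neuron markers mutant distal maxilla 2 (10.20) lay near mutant distal maxilla 4 (10.49).

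Tgfbr1 itself did not pass the test of a difference between jaws. Its tested probe set stood at 12.99, 12.92, 12.96 and 12.97 in mutant mandibles, against 12.60, 12.69, 12.67 and 12.76 in control mandibles. In maxillae it stood at 13.32, 13.04, 12.99 and 12.91 in mutants and at 12.59, 12.80, 12.64 and 12.58 in controls. Mutants were above controls without overlap in both jaws, by 0.28 in the mandible (limma adjusted p = 0.17) and 0.41 in the maxilla (adjusted p = 0.0442). The difference of differences was -0.14 (95% interval -0.40 to 0.13, adjusted p = 0.974). The 2 other probe sets of Tgfbr1, at much lower signal, gave differences of differences of 0.48 and 0.73. The files do not say which of these probe sets lies in the deleted part of the gene, so none of them checks the deletion.

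The change in mutants differed between the 2 jaws for 15 genes, and for 14 of them it was lower in the mandible than in the maxilla. They were led by Stmn2, a tubulin-binding protein of growing axons, Emx2, a homeobox transcription factor, and Cbln2, a secreted synapse organiser. Trpm1, a cation channel of melanocytes and retinal bipolar cells, was the 1 gene called in the other direction. A gene was tested if its probe set lay above percentile 40 of the array on at least 4 of the 16 arrays, and limma was fitted to the 4 group means, with Benjamini-Hochberg adjustment over all genes. Of 13374 genes tested, 0.112% were called in either direction, 0.105% as lower and 0.00748% as higher, at an adjusted p under 0.05. At an unadjusted p under 0.05 the shares were 5.82% in either direction, 4.22% lower and 1.6% higher. Within each jaw, the effect of genotype passed for 116 genes in the mandible (0.867%), of which 18 were higher and 98 lower in mutants, and for 98 genes in the maxilla (0.733%), of which 67 were higher and 31 lower. These counts also moved with single arrays, over 38 to 239 calls in the mandible (38 without mutant distal mandible 1 or 4, 239 without mutant distal maxilla 1) and 10 to 341 in the maxilla (10, 21 and 21 without control distal maxilla 3, 4 and 1, 13 without mutant distal maxilla 2, and 341 without control distal maxilla 2). With all 32 arrays in the fit the maxilla gave 50 higher and 64 lower, so its majority turned, and the mandible 67 higher and 193 lower. For the difference between jaws that fit gave 14 calls, 1 higher and 13 lower, and only 8 of them were among the 15. Across all genes the 2 jaw effects had a Pearson correlation of 0.302, a description over genes, which are not independent replicates.

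**Figure D1:**
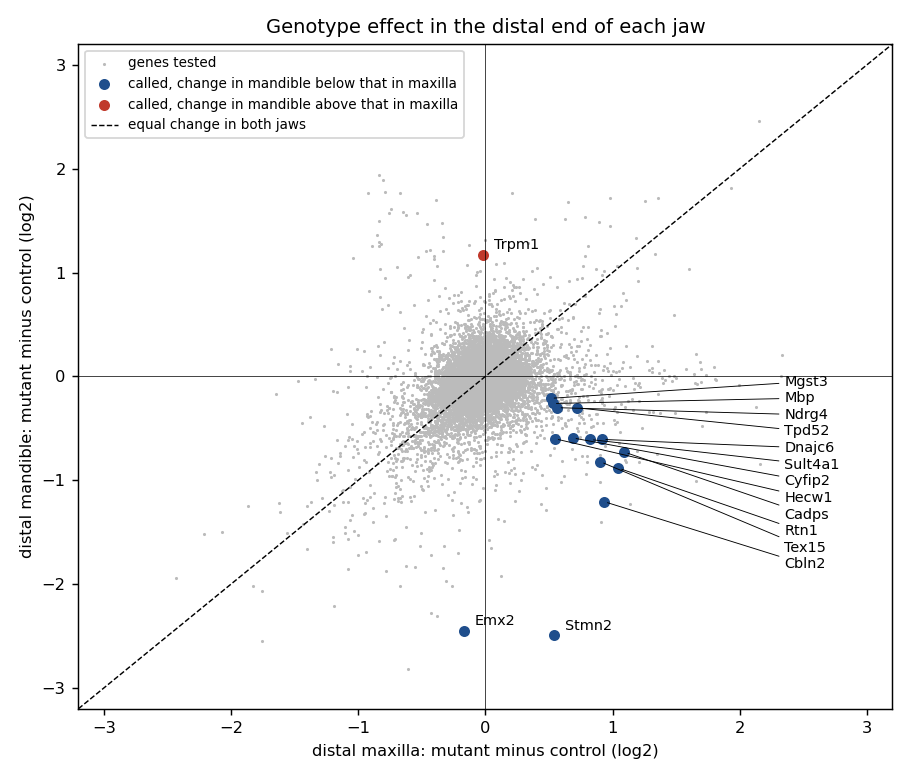
The change in mutant distal mandible (vertical axis) is plotted against the change in mutant distal maxilla (horizontal axis), both as log2 mutant minus control, for all 13374 genes tested in grey and the 15 called genes in colour. The 14 blue genes lie below the dashed line of equal change, 13 of them with a value below 0 in the mandible and above 0 in the maxilla, and Trpm1 in red lies above it.

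The count of called genes depended on single arrays. Leaving out 1 mutant array gave 23, 7, 9 and 31 calls without mutant distal maxilla 1, 2, 3 and 4, and 8, 6 and 6 without mutant distal mandible 2, 3 and 4. Leaving out 1 control array gave 79 calls without control distal maxilla 2, 4 without control distal maxilla 3 or 4, 5 without control distal mandible 3, and 10 to 15 without the remaining ones. Without both control distal maxilla 2 and mutant distal maxilla 4 there were 112 calls, which held all 15. Without control distal mandible 3, control distal maxilla 3 and mutant distal maxilla 1 there were 2, Emx2 and Cyfip2. With number 1 against the others as a covariate 35 genes were called, again with all 15, and none of the alternatives that left out the 4 arrays of 1 number kept all 15. Without number 1 there were 18 calls, of which 7 were among the 15, without number 2 only 1 (Emx2), without number 3 only 1 (Dnajc6), and without number 4 there were 7, of which 3 were among the 15. Number 1 alone has 1 array a group and gives no test. Stmn2, Emx2, Dnajc6 and Cyfip2 passed in all 16 fits that left out 1 array, but in those 4 fits Dnajc6 passed 3 times, Emx2 2 times, and Stmn2 and Cyfip2 1 time each. Of the other genes Tpd52 passed in 14 of the 16 fits, Tex15 in 13 and the other 9 in 4 to 8. None of the 15 changed direction in any setting tried. The main fit treated the arrays as unpaired, and no label ties a number to an embryo. With a fixed block by number within genotype, which pairs the jaws, 2 genes were called, and of the 15 only Emx2 passed. With that block as a random term 58 genes were called, with all 15 among them.

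**Figure D2:**
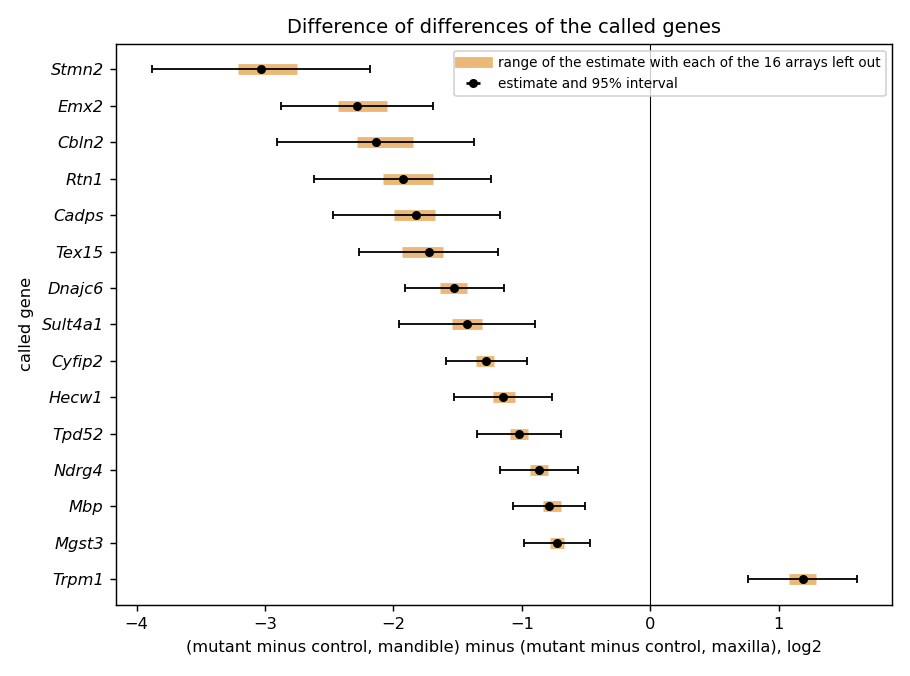
For each of the 15 called genes the black point is the difference of differences on the log2 scale, the black bar its 95% interval, and the orange bar the range of the estimate when each of the 16 arrays is left out in turn. Stmn2 is lowest at -3.03, Trpm1 is the only gene above 0 at 1.18, and every orange bar stays on its own side of 0.

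Emx2 had the smallest adjusted p, together with Dnajc6 and Cyfip2. This homeobox gene is best known for patterning the forebrain and the urogenital system. It stood at 7.99, 8.50, 8.13 and 8.04 in mutant mandibles, against 10.75, 10.42, 10.65 and 10.63 in control mandibles. The mandible groups were thus far apart, with the highest mutant well below the lowest control. In maxillae it stood at 10.32, 10.32, 10.51 and 10.35 in mutants, against 10.87, 9.84, 10.98 and 10.47 in controls, where the groups overlapped. Emx2 fell by 2.45 in the mutant mandible (limma adjusted p = 3.91e-05), and its maxilla difference of -0.17 did not pass (adjusted p = 0.867). The difference of differences was -2.28 (SE 0.28, adjusted p = 0.0029).

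Stmn2 had the largest difference between the jaws. It stood at 7.94, 9.06, 8.83 and 9.33 in mutant mandibles, against 11.73, 11.25, 10.79 and 11.34 in control mandibles, again without overlap. In maxillae it stood at 12.65, 12.11, 12.01 and 12.30 in mutants, against 12.19, 11.23, 11.76 and 11.73 in controls, with overlap. Stmn2 fell by 2.49 in the mutant mandible (adjusted p = 0.00126), while the maxilla difference of 0.54 did not pass (adjusted p = 0.557). The difference of differences was -3.03 (SE 0.40, adjusted p = 0.00592), and a second probe set of Stmn2 gave -2.76.

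Cyfip2, Dnajc6 and Tex15 were called in both jaws with opposite signs. Cyfip2 is a subunit of the WAVE complex that controls actin branching. It stood at 8.25, 8.12, 8.25 and 8.28 in mutant mandibles, against 8.58, 8.79, 8.98 and 8.91 in control mandibles, and at 9.91, 10.26, 10.11 and 10.22 in mutant maxillae, against 9.44, 9.61, 9.45 and 9.26 in control maxillae. The 4 groups did not overlap, with mutants lowest in the mandible and highest in the maxilla. Cyfip2 fell by 0.59 in the mandible (adjusted p = 0.0166) and rose by 0.68 in the maxilla (adjusted p = 0.0116), a difference of -1.28 (SE 0.15, adjusted p = 0.0029). A second probe set of Cyfip2 past the filter gave -0.66.

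Dnajc6 encodes auxilin, the cochaperone that uncoats clathrin vesicles at nerve endings. It stood at 6.88, 6.83, 7.48 and 7.35 in mutant mandibles and 7.67, 7.72, 7.87 and 7.70 in control mandibles. In maxillae it stood at 9.52, 9.66, 9.35 and 9.52 in mutants and 8.63, 8.57, 8.54 and 8.62 in controls. Both jaws thus had separate groups, with the gap in opposite directions. Dnajc6 fell by 0.61 in the mandible (adjusted p = 0.0381) and rose by 0.92 in the maxilla (adjusted p = 0.0084), a difference of -1.53 (SE 0.18, adjusted p = 0.0029). Tex15, a gene best known from meiosis and transposon silencing in the testis, showed the same pattern: it stood at 8.05 to 8.58 in mutant mandibles, against 8.92 to 9.37 in control mandibles, and at 9.58 to 10.54 in mutant maxillae, against 9.24 to 9.35 in control maxillae. Its difference of differences was -1.73 (SE 0.25, adjusted p = 0.0171).

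These 3 genes were an exception among genes called in both jaws. There were 15 such genes in all, and the other 12 had the same sign in both. Among those 12, the small leucine-rich proteoglycan gene Ogn fell by 1.10 in the mandible and by 1.12 in the maxilla, with a difference of 0.03 (95% interval -0.65 to 0.71). Chodl, a membrane lectin gene, fell by 2.01 in the mandible and fell by 1.83 in the maxilla (difference -0.19, interval -1.21 to 0.83), and Bmp2, a bone morphogenetic protein gene, fell by 1.19 in the mandible and fell by 0.93 in the maxilla (difference -0.26, interval -0.85 to 0.33). Igdcc3, an immunoglobulin family gene, rose by 1.81 in the mandible and by 1.93 in the maxilla (difference -0.12, interval -1.19 to 0.95). None of the 4 passed the test of the difference, and the intervals of Chodl and Igdcc3 still allow a difference of about the size of that of Hecw1. These genes were picked as examples after their values were seen.

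Of the remaining called genes Cbln2 stood at 6.28, 6.36, 6.52 and 6.51 in mutant mandibles, all below the filter on low signal, against 8.07, 7.44, 7.77 and 7.21 in control mandibles. In maxillae it stood at 7.60, 7.59, 7.68 and 8.79 in mutants and 6.71, 7.43, 6.77 and 7.03 in controls, so mutant distal maxilla 4 was far above the others. Cbln2 fell by 1.21 in the mandible (adjusted p = 0.0381), its maxilla difference of 0.93 did not pass (adjusted p = 0.123), and the difference of differences was -2.14 (SE 0.36, adjusted p = 0.028). Without mutant distal maxilla 4 and control distal maxilla 2 all 15 genes still passed, Cbln2 included.

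Rtn1, a reticulon of the neuronal endoplasmic reticulum, stood at 8.36 to 8.95 in mutant mandibles, against 9.13 to 9.71 in control mandibles, and at 11.33 to 12.49 in mutant maxillae, against 10.37 to 11.13 in control maxillae. It was called in neither jaw alone (mandible -0.88, adjusted p = 0.0991, and maxilla 1.04, adjusted p = 0.0504), while the difference of -1.93 passed (adjusted p = 0.028). Cadps, a priming factor of dense-core vesicles, lay below the filter on all 4 mutant mandible arrays and on 2 of the control mandible arrays. It rose by 1.09 in the maxilla (adjusted p = 0.0354), at 8.70 to 9.66 in mutants and 8.03 to 8.31 in controls, with a difference between jaws of -1.82 (adjusted p = 0.028). Sult4a1, a brain sulfotransferase, stood at 6.36 to 6.87 in mutant mandibles and 6.92 to 7.52 in control mandibles, and at 8.18 to 8.84 in mutant maxillae and 7.34 to 7.91 in control maxillae, a difference of -1.43 (adjusted p = 0.0351). Hecw1, a ubiquitin ligase of the nervous system, had a difference of -1.15 (adjusted p = 0.0252), and it too was below the filter on all 4 mutant mandible arrays. RMA compresses differences between low signals, so the mandible side of Cbln2, Cadps, Hecw1 and Sult4a1, which was below the filter on 3 of 4 mutant mandible arrays, is measured less well than the maxilla side.

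The 4 smallest differences came from genes that were above the filter on all 16 arrays. Tpd52, a vesicle trafficking protein of secretory epithelia, stood at 10.12 to 10.53 in mutant mandibles and 10.48 to 10.85 in control mandibles, and at 11.69 to 11.96 in mutant maxillae and no more than 11.17 in control maxillae. Its mandible groups touched and its maxilla groups were separate, and the difference was -1.03 (adjusted p = 0.0171). Ndrg4, a gene of neurons and heart, had a difference of -0.87, Mbp, the myelin basic protein gene that is also transcribed as Golli forms outside myelin, one of -0.79, and the microsomal glutathione transferase gene Mgst3 one of -0.72, each with an adjusted p of 0.028. In these 4 genes the maxilla effect passed the test, at 0.72 for Tpd52, 0.57 for Ndrg4, 0.53 for Mbp and 0.51 for Mgst3, while the mandible effects of -0.30, -0.30, -0.26 and -0.21 did not.

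Trpm1 was the gene called in the other direction. It stood at 7.60, 8.03, 8.16 and 7.81 in mutant mandibles, against 6.41, 6.84, 6.95 and 6.73 in control mandibles, without overlap. In maxillae it was below the filter on all 8 arrays, at 6.13 to 6.62 in mutants and 6.33 to 6.54 in controls. Trpm1 rose by 1.17 in the mandible (adjusted p = 0.00211), and its maxilla difference was -0.02, so the difference of differences was 1.18 (SE 0.20, adjusted p = 0.028). It was not called when the probe sets of a gene were averaged: a second Trpm1 probe set past the filter, at a mean of 6.81, gave 0.01. Trpm1 is known from pigment cells, and the list of pigment cell markers gave no call: of its 7 tested members all had a difference below 0, and 1, Dct, a melanin synthesis enzyme, was past an unadjusted p of 0.05, at -1.24 (adjusted p = 0.519). Mitf, the master regulator of melanocytes, had -0.71 (adjusted p = 0.974), with 6.89 to 7.07 in mutant mandibles and 7.08 to 8.24 in control mandibles. Ednrb, a receptor of migrating melanoblasts, had -0.49 and Oca2, a melanosome transporter, -0.20 (adjusted p = 0.974 for both).

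**Figure D3:**
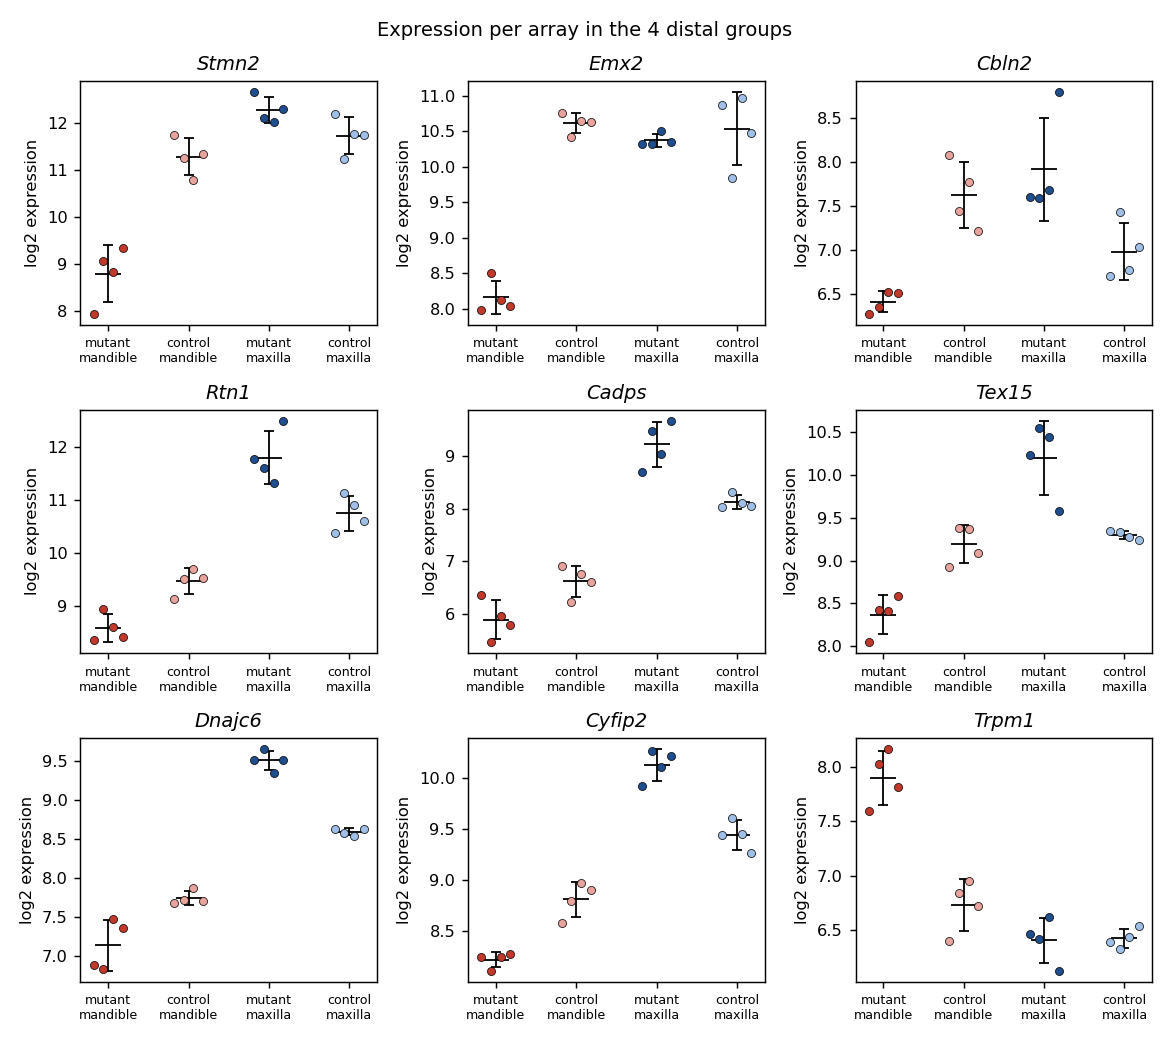
Log2 expression of 9 called genes is shown for each array (points, numbers 1 to 4 from left to right in a group), with the group mean and SD as a black cross bar and whiskers, for mutant mandible, control mandible, mutant maxilla and control maxilla. Emx2 and Stmn2 are low in mutant mandibles alone, Cyfip2 and Dnajc6 have mutants below controls in the mandible and above them in the maxilla, and Trpm1 is high in mutant mandibles alone.

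The upstream sequences of Emx2 and Trpm1 are shown because these 2 genes changed in the mandible with little difference in the maxilla, 1 down and 1 up. In the maxilla Trpm1 was below the filter on all arrays. They are the 250 bases before the annotated start, 5′ to 3′ on the strand of the gene, from RefSeq (GRCm38.p6), in which 8 of the 15 called genes had an entry. Capitals mark the letters CCAAT and CACGTG (an E-box, the kind of site bound by Mitf and other basic helix-loop-helix factors), searched on both strands, with TATAAA also searched and absent from both windows. Emx2 lies at chr19:59458440-59458689 on the plus strand, and Trpm1 at chr7:64185209-64185458 on the plus strand, the second of its 2 annotated starts.
Emx2: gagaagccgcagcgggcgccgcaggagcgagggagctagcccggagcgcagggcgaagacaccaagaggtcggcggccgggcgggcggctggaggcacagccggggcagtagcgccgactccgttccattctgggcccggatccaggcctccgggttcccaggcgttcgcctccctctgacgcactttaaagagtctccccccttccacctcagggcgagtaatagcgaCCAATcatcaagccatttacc
Trpm1: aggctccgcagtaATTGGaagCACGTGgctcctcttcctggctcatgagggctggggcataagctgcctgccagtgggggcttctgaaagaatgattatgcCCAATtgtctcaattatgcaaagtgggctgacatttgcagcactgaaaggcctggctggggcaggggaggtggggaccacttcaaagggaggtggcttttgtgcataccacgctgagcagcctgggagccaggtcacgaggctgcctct
The Emx2 window had 1 CCAAT, which began 21 bases before the start, and a GC content of 67.2% with 24 CpG pairs. The Trpm1 window had 1 CACGTG, which began 229 bases before the start, 2 CCAAT on either strand, and a GC content of 57.2% with 4 CpG pairs. Of 32851 windows of the same length, 33.85% held CCAAT, 6.021% held CACGTG and 12.37% held TATAAA. A match of letters is a description and does not show that a factor binds there.

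In all 15 genes the gap between mandible and maxilla was wider in mutants than in controls, against 67.6% of all genes tested. Of the 15, 14 had opposite signs in the 2 jaws, against 41.3% of all genes tested. Both counts come from the values that chose these genes, since the difference of differences is also the jaw gap in mutants minus that in controls, and they are given as a description only. In 12 of the 15 the mandible lay below the maxilla in controls, as it did in 7310 of the 13374 genes tested. Of the 15, 5 were called in the mandible and not in the maxilla, 6 in the maxilla and not in the mandible, 3 in both and 1, Rtn1, in neither. Where these genes had other probe sets past the filter, 10 of 11 had the same sign as the one tested, the exception being an Mbp probe set at 0.02.

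Neuron markers held 2 of the 14 genes called as lower, Stmn2 and Rtn1, among 20 members tested. Lists and members were chosen with earlier results of these data known, so the counts for lists are a description only. All 20 had a difference below 0, with a median of -1.41 against 0.00 for all genes, and 13 of 20 were lower at an unadjusted p under 0.05. Over all genes 4.22% were lower and 1.6% higher at that p, and 0.105% were called as lower. The same shares apply to every list, and genes of 1 list are not independent replicates. The median effect was -0.14 in the mutant mandible and 1.04 in the mutant maxilla, against -0.03 in each jaw for all genes, so for most members the value in the maxilla was the larger one. In the maxilla 5 members rose and 0 fell, among them the sensory sodium channel gene Scn9a (1.37, adjusted p = 0.0084), which stood at 7.46 to 8.07 in mutants and 6.07 to 6.83 in controls and was below the filter on all 8 mandible arrays and on 3 of the 4 control maxilla arrays. Calb2, a calcium-binding protein (1.81, adjusted p = 0.0163), and Prph, an intermediate filament of peripheral neurons (1.70, adjusted p = 0.0223), also rose there. In the mandible 1 member, Stmn2, fell. Tubb3, the neuronal beta-tubulin, had a difference of -1.62 that did not pass (adjusted p = 0.0697), with no more than 8.29 in mutant mandibles, 8.27 to 9.19 in control mandibles, 10.18 to 10.97 in mutant maxillae and 9.29 to 10.08 in control maxillae.

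The mean level of the 20 neuron markers showed which arrays carried this. It was 7.72, 7.70, 7.75 and 7.78 in mutant mandibles, against 8.27, 8.16, 8.09 and 7.94 in control mandibles, without overlap. In maxillae it was 9.55, 10.20, 9.85 and 10.49 in mutants, against 8.73, 9.56, 8.85 and 8.98 in controls, so control distal maxilla 2 was at the level of the lowest mutant and mutant distal maxilla 4 was highest. The median difference stayed between -1.58 and -1.22 with any 1 array left out. It was -1.57 without control distal maxilla 2 and mutant distal maxilla 4.

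**Figure D4:**
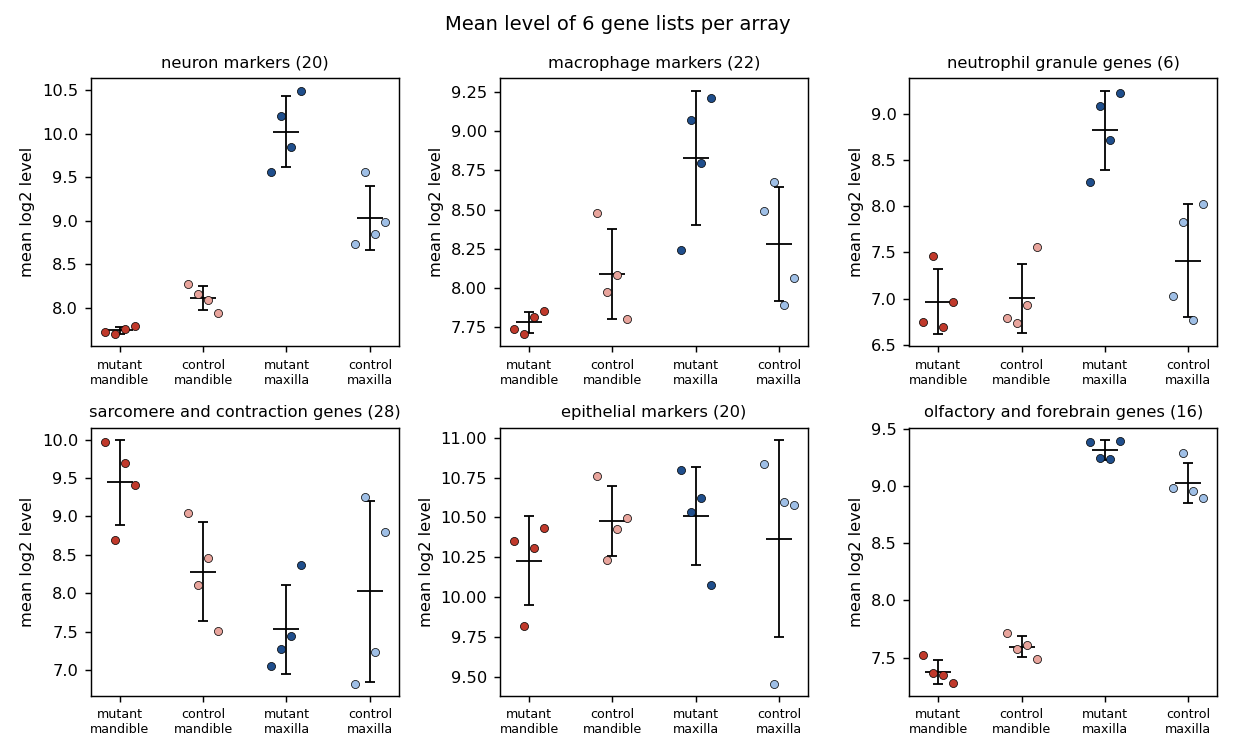
The mean log2 level of the tested members of 6 lists is shown for each array (points, numbers 1 to 4 from left to right in a group), with the group mean and SD, for mutant mandible, control mandible, mutant maxilla and control maxilla. The neuron markers are separate in the mandible and nearly so in the maxilla, with mutants lower in the mandible and higher in the maxilla, while the sarcomere genes of control maxilla spread from 6.82 to 9.25.

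Genes that drive neuron formation also had mostly negative differences. Of 14 neurogenic transcription factors tested, 13 were below 0, with a median difference of -0.80, and none was called. At an unadjusted p under 0.05, 6 were lower and 1 higher (4.22% and 1.6% of all genes). The median was -0.47 without mutant distal maxilla 4 and -1.24 without control distal maxilla 2. Insm1, a zinc-finger factor of newborn neurons, had a difference of -1.61 (adjusted p = 0.0884), with 6.35 to 6.82 in mutant mandibles and 7.01 to 7.63 in control mandibles, and 10.67 to 11.36 in mutant maxillae and 9.57 to 10.82 in control maxillae. Nhlh1, a basic helix-loop-helix factor of early neurons, was below the filter on all mandible arrays and rose by 1.31 in the mutant maxilla (adjusted p = 0.0229). Nhlh2, its relative, had 10.78 to 11.18 in mutant maxillae and 9.19 to 10.34 in control maxillae, a difference of 1.40 that did not pass (adjusted p = 0.0541). Sox2, a progenitor factor, had -0.40 in the mandible and 0.60 in the maxilla, and the difference did not pass (adjusted p = 0.419).

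Olfactory and forebrain genes held 1 call, Emx2, among 16 tested, with 5 lower and 0 higher at an unadjusted p under 0.05 and a median difference of -0.27 (-0.17 without mutant distal maxilla 1). With the arrays of 1 number left out that median ran over -0.38 to -0.013. Ebf1, a helix-loop-helix factor of olfactory neurons and of mesenchyme, came next to Emx2 in this list: it stood at 8.80, 8.98, 8.66 and 8.35 in mutant mandibles, against 11.61, 10.35, 10.14 and 10.38 in control mandibles. It fell by 1.92 in the mandible (adjusted p = 0.00747) and had 0.12 in the maxilla, where groups overlapped, but the difference of -2.04 did not pass (adjusted p = 0.079). Otx2 rose by 0.76 in the mutant maxilla (adjusted p = 0.0426), while its mandible arrays were all below the filter, and the difference of -0.79 did not pass (adjusted p = 0.28). Lhx2, a LIM homeobox gene of the olfactory placode, had -1.93 (adjusted p = 0.316). Lhx2 was below the filter on all 4 mutant mandible arrays and on 3 of the control mandible arrays, with control distal mandible 1 highest at 7.09. The mean level of the 16 genes was 7.28 to 7.52 in mutant mandibles, 7.49 to 7.71 in control mandibles, 9.24 to 9.39 in mutant maxillae and 8.89 to 9.28 in control maxillae. The part of olfactory tissue content in these differences was not tested.

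Schwann cell and glial markers held 1 call, Mbp, among 12 tested, with a median difference of -0.32 (-0.20 without control distal mandible 1) and 10 members below 0. Fabp7, a fatty acid binding protein of glia, had the largest value, -2.10, which did not pass (adjusted p = 0.443), with control distal maxilla 2 at 11.69 and the other control maxillae at 9.25 to 9.56. Sox10, which specifies glia and melanocytes, had -0.60 and Foxd3, an early crest factor, -0.61, and neither passed (adjusted p = 0.86 and 0.932).

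Macrophage and neutrophil genes had negative differences as well, with no call. Of 22 macrophage markers tested 21 were below 0, with a median difference of -0.88 (mandible -0.22, maxilla 0.58). At an unadjusted p under 0.05, 13 were lower, against 4.22% of all genes. Ptprc, the pan-leukocyte antigen CD45, stood at 6.77, 6.57, 6.97 and 6.87 in mutant mandibles, against 8.10, 7.71, 7.94 and 7.74 in control mandibles. It fell by 1.08 there (adjusted p = 0.0241), and had 0.48 in the maxilla (adjusted p = 0.394) and a difference of -1.56 (adjusted p = 0.0597). Mpeg1, a pore-forming protein of macrophages, passed in the maxilla instead: it rose by 1.27 in the mutant maxilla (adjusted p = 0.0084), at 8.63 to 9.19 in mutants and 7.25 to 8.10 in controls, with 0.15 in the mandible (adjusted p = 0.801). C3ar1, a complement receptor, rose by 0.78 in the maxilla (adjusted p = 0.0246). The mean level of the list was 7.71 to 7.86 in mutant mandibles, 7.80 to 8.48 in control mandibles, 8.24 to 9.21 in mutant maxillae and 7.89 to 8.67 in control maxillae.

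Of 6 neutrophil granule genes tested, all 6 were below 0, with a median difference of -1.44 (mandible 0.00, maxilla 1.37). At an unadjusted p under 0.05, 5 were lower, against 4.22% of all genes. Ngp, a granule protein, stood at 8.74, 9.46, 9.39 and 9.49 in mutant maxillae, against 7.26, 8.02, 7.01 and 8.02 in control maxillae. It rose by 1.69 there (adjusted p = 0.0163), as did Ltf, lactoferrin (0.92, adjusted p = 0.0269), and Camp, cathelicidin (1.05, adjusted p = 0.0439). S100a8, a calprotectin subunit, had the largest difference, -2.42, and did not pass (adjusted p = 0.627), with control maxillae spread over 6.16 to 8.80. Camp was below the filter on all mandible arrays and on 2 of the control maxilla arrays. S100a8 was below it on 3 mutant and 3 control mandible arrays and on 1 control maxilla array. Ngp was above it on every array. The mandible side of Camp and S100a8 is therefore measured less well than the maxilla side.

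Skeletal muscle genes had the largest positive medians, and none was called for a difference between jaws. Of 28 sarcomere and contraction genes tested, 26 were above 0, and the median difference was 2.09 (mandible 1.26, maxilla -0.49). At an unadjusted p under 0.05, 15 of these genes were higher, against 1.6% of all genes. Klhl41, a sarcomere protein, had the smallest p of these, with a difference of 2.57 (SE 0.71, adjusted p = 0.267). It stood at 8.30, 6.94, 8.07 and 7.83 in mutant mandibles, against 6.66, 6.09, 6.20 and 5.07 in control mandibles, without overlap. It was below the filter on all 4 control mandible arrays and on all 8 maxilla arrays, so it entered the test only through the mutant mandibles, where it was high. Of 12 muscle regulators tested all 12 were above 0, with a median of 1.30. By the effect of genotype in the maxilla 1 of the 12 was called, as lower in mutants. Myog, which drives myoblast differentiation, stood at 10.08 to 11.61 in mutant mandibles and 8.23 to 9.97 in control mandibles, and at 6.39 to 9.52 in mutant maxillae and 6.28 to 10.46 in control maxillae, a difference of 2.23 (95% interval -0.26 to 4.72, adjusted p = 0.962). Mymk, the myoblast fusion gene myomaker, had 1.57 (adjusted p = 0.221), and of 7 neuromuscular junction genes 5 were above 0, with the fetal acetylcholine receptor subunit gene Chrng at 1.13 (adjusted p = 0.379).

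The level of sarcomere genes varied strongly between arrays of 1 group. The mean of the 28 sarcomere genes was 9.97, 8.70, 9.69 and 9.41 in mutant mandibles, against 9.05, 8.11, 8.45 and 7.51 in control mandibles. In maxillae it was 7.05, 7.28, 7.44 and 8.37 in mutants, against 6.82, 9.25, 7.23 and 8.79 in controls, so that control distal maxilla 2 and 4 lay near the mandibles. The median difference moved between 1.35 (without control distal maxilla 2) and 2.60 (without control distal maxilla 1) with 1 array left out, and was 1.86 without control distal maxilla 2 and mutant distal maxilla 4. The part of muscle gene levels in other results was not tested.

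**Figure D5:**
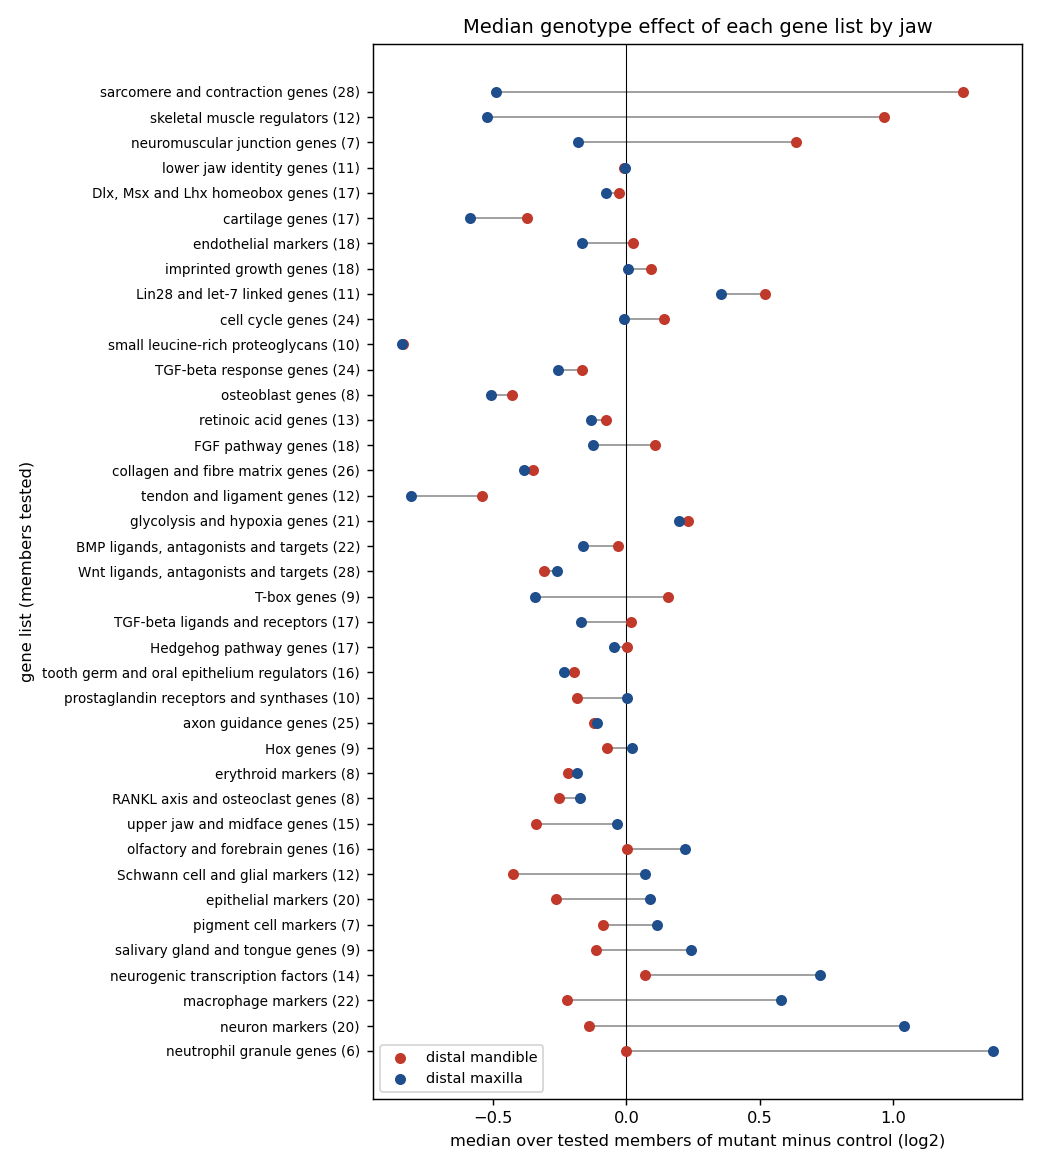
For each of 39 gene lists the red point is the median change in the distal mandible and the blue point the median change in the distal maxilla, as log2 mutant minus control over the tested members, whose number is in brackets. Lists run from the highest median difference between jaws at the top to the lowest at the bottom: the muscle lists have red far to the right of blue, and the neuron, macrophage and neutrophil lists have blue far to the right of red.

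Epithelial markers had a median difference of -0.34 over 20 tested members, with 18 below 0, 4 lower at an unadjusted p under 0.05 and none called. That median was -0.56 without control distal maxilla 1 and -0.13 without control distal maxilla 2. The leading ones were the genes of simple epithelia: Epcam, an adhesion molecule, had -0.79 (adjusted p = 0.0855), Krt18 -1.11 (adjusted p = 0.118), Krt8 -1.09 (adjusted p = 0.182) and Cldn7 -0.70 (adjusted p = 0.547). Epcam stood at 11.44 to 11.88 in mutant mandibles and 11.83 to 12.12 in control mandibles, and at 12.80 to 13.03 in mutant maxillae and 12.11 to 12.51 in control maxillae, where it rose by 0.54 (adjusted p = 0.0443). Control distal maxilla 2 was the lowest control for Epcam and for Krt8.

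Genes that set jaw identity gave no call. Of 11 lower jaw genes tested none was past an unadjusted p of 0.05, with a median difference of 0.30 that was -0.02 without control distal maxilla 3, and Hand2 had 0.73, Pitx1 -0.76, Dlx6 0.75 and Dlx5 0.57 (adjusted p of 0.961 to 0.974). Of 15 upper jaw and midface genes 2 were lower at an unadjusted p under 0.05. Pantr1, a noncoding RNA, and its neighbour Pou3f3, a POU transcription factor, both fell in the mandible. Against the name of this list, their mean in distal controls was higher in the mandible than in the maxilla, by 1.10 and 0.65. Pantr1 stood at 8.66, 9.11, 9.08 and 8.72 in mutant mandibles, against 11.37, 11.83, 11.99 and 11.64 in control mandibles, and at 9.67 to 10.36 in mutant maxillae, against 9.17 to 11.77 in control maxillae. Its mandible change of -2.82 passed (adjusted p = 0.0031), its maxilla difference of -0.61 did not, and the difference between jaws of -2.21 did not (95% interval -3.35 to -1.06, adjusted p = 0.152). Pou3f3 had -1.63 in the mandible (adjusted p = 0.00784), -0.33 in the maxilla and a difference of -1.30 (adjusted p = 0.207).

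Among 17 homeobox genes tested Emx2 was the 1 call, with 1 higher and 3 lower at an unadjusted p under 0.05, and among 9 T-box genes none was called, with 3 higher and 2 lower. Prrx1, a mesenchymal homeobox gene, fell by 0.48 in the maxilla (adjusted p = 0.0391), at 12.51 to 12.87 in mutants and 13.08 to 13.25 in controls, and had -0.01 in the mandible, with a difference of 0.47 that did not pass (adjusted p = 0.322). Eomes, a T-box factor, rose by 1.17 in the maxilla (adjusted p = 0.0163), and had a difference of -1.23 (adjusted p = 0.114). It was below the filter on every mandible array and on all 4 control maxilla arrays, so it entered the test only through the mutant maxillae, where it was high, at 7.14 to 8.25 against 6.28 to 6.63 in control maxillae. Tbx15, a T-box gene of skeletal mesenchyme, fell by 2.01 in the mandible (adjusted p = 0.00744), with 8.14 to 9.51 in mutants and 10.86 to 11.01 in controls, and had -0.67 in the maxilla and a difference of -1.34 (adjusted p = 0.408). Tbx3 had 0.70 (adjusted p = 0.608).

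The genes nearest to a call in the positive direction did not pass. Bnc1, a basonuclin of epithelia and mesothelium, had 1.45 (adjusted p = 0.0856), Pgm5, a muscle adhesion protein, 1.16 (adjusted p = 0.0905), Ccbe1, a lymphatic growth gene, 0.96 (adjusted p = 0.116), and Gata2, a zinc-finger factor, 1.19 (adjusted p = 0.136). Pgm5 fell by 1.06 in the maxilla (adjusted p = 0.0163), at 8.96 to 9.48 in mutants and 10.18 to 10.38 in controls. Dkk3, a Dickkopf family gene, fell by 0.74 in the maxilla (adjusted p = 0.0084), at 9.38 to 9.71 in mutants and 10.07 to 10.61 in controls, and had a difference of 0.59 (adjusted p = 0.182). Tbx4 (1.29), Fgfr4 (1.46), Lrba (0.75) and 2310002L09Rik (0.96) had adjusted p of 0.144 to 0.159.

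The TGF-beta pathway itself gave no call. Of 17 ligand and receptor genes tested, 8 were above 0 and 9 below, with a median difference of -0.01 (-0.083 to 0.077 with 1 array left out) and none past an unadjusted p of 0.05, and Tgfb2, a ligand, had 0.37 (adjusted p = 0.974). Of 24 response genes 1 was higher and 1 lower at an unadjusted p under 0.05: Tagln, a smooth muscle gene, had 0.86 (adjusted p = 0.607) and Tgfbi, an extracellular matrix gene, -0.86 (adjusted p = 0.82). Acta2, smooth muscle actin, had 1.75 (95% interval -0.13 to 3.62), and it varied with the muscle arrays, at 12.10 and 11.45 in control distal maxilla 2 and 4 and 10.05 and 9.34 in 1 and 3.

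Matrix and skeletal lists had medians below 0 in both jaws. The median effect of 10 small leucine-rich proteoglycans was -0.84 in each jaw, that of 26 collagen and fibre genes -0.35 in the mandible and -0.38 in the maxilla, that of 12 tendon genes -0.54 and -0.81, and that of 17 cartilage genes -0.37 and -0.58. Their median differences between jaws were 0.14, 0.06, 0.06 and 0.24. With 1 array left out those of the proteoglycans, fibre genes and tendon genes took both signs, and that of the cartilage genes ran over 0.070 to 0.43. With the arrays of 1 number left out the cartilage median took both signs too, at -0.088 to 0.55. None of the members of these lists was called for a difference, with 3 fibre genes lower and none of the rest past an unadjusted p of 0.05. Within the fibre list Has2, which makes hyaluronan, fell by 0.69 in the mandible (adjusted p = 0.00784) with a maxilla difference of -0.11, and Lox, the collagen cross-linking enzyme, fell by 1.97 in the mandible (adjusted p = 0.0331), at 8.94 to 9.10 in mutants and 10.15 to 12.34 in controls, with -0.31 in the maxilla. Their differences between jaws were -0.58 for Has2 (adjusted p = 0.182) and -1.66 for Lox (adjusted p = 0.534).

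The remaining pathway lists described here held no call either. Among 10 prostaglandin genes 2 were lower at an unadjusted p under 0.05. Ptgfr, the receptor for prostaglandin F, fell by 2.28 in the mandible (adjusted p = 0.0241), with -0.43 in the maxilla and a difference of -1.85 (adjusted p = 0.465), and Ptger4, a receptor for prostaglandin E, had -0.78 (adjusted p = 0.608). Among 11 genes linked to Lin28 and let-7, 2 were higher and 1 lower at an unadjusted p under 0.05. Trim71, an RNA-binding ubiquitin ligase, rose by 1.54 in the mandible (adjusted p = 0.00839), at 8.39 to 8.87 in mutants and 6.87 to 7.37 in controls, and had 0.78 in the maxilla, while Nr6a1, an orphan nuclear receptor, rose by 0.38 in the maxilla (adjusted p = 0.0315) and had 0.14 in the mandible. Of 28 Wnt genes 3 were higher and 2 lower at an unadjusted p under 0.05, with Notum, a secreted Wnt deacylase, at 0.95 (adjusted p = 0.47) and Sfrp4, a secreted Wnt antagonist, at -1.50 (adjusted p = 0.679). Of 18 FGF genes 2 were higher, Fgfr4 and Fgf7, a mesenchymal ligand, at 1.27 (adjusted p = 0.801).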

How the data were processed

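RNA from distal and proximal mandible and maxilla was labelled from 5 µg of total RNA and hybridised to 1-colour Affymetrix arrays. Values were deposited on the log2 scale after RMA by the authors, per the submitters' processing notes, which state no version. Quantile normalization within RMA would hide a shift shared by most genes. Scanner files were not used here. Precision is limited by the number of arrays.

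The platform annotation gave 1 symbol to 34945 of 45101 probe sets, several to 932 and none to 9160, and 64 were controls. Each symbol was represented by its probe set of highest mean on the 32 arrays (18193 genes), which was tested if above percentile 40 of the array on at least 4 of the 16 distal arrays (13374 genes). The model was fitted with limma 3.58.1 in R 4.3.3 (lmFit, eBayes, 4 group means, 12 residual degrees of freedom), with Benjamini-Hochberg adjustment over all genes in each contrast and a threshold of 0.05. On simulated data the procedure called 66% of differences of 1 log2 unit and 94% of those of 2, and 9 of its 169 calls were false. The simulated noise was independent between arrays and equal in all groups. In the data the median SD over genes was 0.11 in mutant mandibles and 0.22 in mutant maxillae, so the simulation does not cover uneven groups or arrays that stand apart.

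The genes named are Tgfbr1, the called genes up to 15 in each direction, filled to 10 by smallest p where fewer were called, and up to 4 members with the smallest p of each described list, besides members with a call of their own and the examples marked as chosen later. Members and lists were chosen with earlier results of these data known. Of the 40 lists, the sex check genes served only to compare arrays. Within a group, arrays correlated at 0.926 to 0.997, and no 2 arrays were identical. The fit treated the arrays as unpaired, since the labels tie no number to an embryo. Whether equal numbers in both jaws shared an embryo was not tested. Xist was high on the same numbers in both jaws, mutant number 1 and control number 2. Deviations of equal numbers of 1 genotype correlated between the jaws at over 0.1 in 6 of 8 pairs. Alternatives covered filters, normalization, probe set choice, the arrays fitted, blocks by number, array weights and arrays left out.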

Additional observations from a re-analysis of the deposited data

Results flagged for a closer look

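For 15 genes the change in mutants differed between the distal mandible and the distal maxilla by the test of the difference itself. On the log2 scale the difference of differences was -3.03 for Stmn2, -2.28 for Emx2, -2.14 for Cbln2, -1.93 for Rtn1, -1.82 for Cadps, -1.73 for Tex15, -1.53 for Dnajc6, -1.43 for Sult4a1, -1.28 for Cyfip2, -1.15 for Hecw1, -1.03 for Tpd52, -0.87 for Ndrg4, -0.79 for Mbp, -0.72 for Mgst3 and 1.18 for Trpm1.

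Single arrays lay far from the other 3 of their group in 32 of 404 checks by Dixon's test over the named genes, where chance flags about 1 in 20 groups (5%). Mutant distal maxilla 1 was the array in 6 of them: Mitf (6.80), Ngp (8.74), Hmga2 (12.15) were low, and Oca2 (7.32), Inhbb (8.02) and Sfrp4 (7.29) were high. Mutant distal maxilla 4 was the array in 4, with Cbln2 (8.79), Tagln (10.69) and Acta2 (11.65) high and Rspo1 (9.26) low. Mutant distal mandible 1 was high for Tubb3 (8.29) and Ltbp4 (9.39), and mutant distal mandible 3 was low for Camp (5.95).

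Among controls, distal maxilla 2 was the array in 6: Tpd52 (11.17), Fabp7 (11.69) and Mn1 (12.58) were high, and Bnc1 (8.36), Epcam (12.11) and Krt8 (10.61) were low. Control distal mandible 1 was high for Ebf1 (11.61), Mymk (7.82), Inhbb (7.16) and Sfrp4 (11.88) and low for Scn9a (4.15). Control distal maxilla 1 was high for Ltbp4 (10.30) and Fgfr3 (10.77) and low for Pitx1 (8.45) and Nr6a1 (7.08). Control distal mandible 3 was low for Prrx1 (13.35) and Fbln1 (11.80), control distal mandible 4 was low for Shox2 (11.13), and control distal maxilla 4 was low for Ptger3 (8.39).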

How the results depend on the processing

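The reported counts were 15 for the difference between jaws, 116 for the mandible and 98 for the maxilla. For the difference, array weights gave 980, number 1 as a covariate 35, number as a replicate block 18 (10 of the 15 among them), a replicate block within genotype 2, and that block as a random term 58 (all 15 among them). Under the fixed block within genotype Emx2 alone of the 15 passed (adjusted p = 0.037), and the other 14 had adjusted p of 0.0531 to 0.15. The mandible gave 2392 with array weights, 324 with number 1 as a covariate, 197 with the replicate block and 260 with all 32 arrays in the fit. The maxilla gave 2421, 221 and 149 with the first 3 of these and 64 with arrays centred on the median. A block within genotype leaves no genotype effect to estimate in a jaw. Numbers are not labelled as shared embryos. Deviations of equal numbers correlated at -0.048 to 0.56 between the jaws of 1 genotype (6 of 8 pairs over 0.1) and at -0.34 to 0.50 between genotypes in 1 jaw, and 8 of 16 arrays correlated best with their own number in the other jaw.

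Leaving out replicates gave 1 to 79 calls for the difference, 6 to 239 for the mandible and 1 to 341 for the maxilla. Omitting control distal maxilla 2 and mutant distal maxilla 4, chosen after seeing the data, gave 112, 201 and 307. Omitting the 3 arrays of doubtful quality, also chosen after seeing the data, gave 2, 134 and 34. With all 32 arrays 43.9% of maxilla calls were higher in mutants, against 68.4%, and with repeated quantile normalization 77%. The causes were not tested.

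Over the named genes and all settings, 2975 values kept their direction and side of the threshold, 191 no longer passed, 131 newly passed and 7 changed sign. Of these genes 3 changed direction, none of them called. Tgfbr1 was 0.36 with the mean of its probe sets. Inhbb was 0.41 with that mean, 0.0103 with array weights, 0.11 without the doubtful arrays, and -0.28 to 0.074 with replicates left out. Oca2 was -0.37 to 0.048 with replicates left out. Low signal limits the genes below the filter in a group.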
